A study of Arabidopsis thaliana with 5 samples.

Results

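The genes described here were raised in Arabidopsis thaliana seedlings after 30 min in 0.2% oxygen and read near their air level on the 60 min array. A probe set, the group of short probes that reports 1 transcript or a few similar ones on this Affymetrix array, was taken when its log2 value at 30 min of hypoxia lay at least 1 above both air arrays and reached 6 or more, while its value at 60 min lay within 0.5 of the mean of the 2 air arrays. Class III peroxidases, BGLU and WRKY genes and 8 other genes (AT4G33720, OSM34, AT4G16260, LCR69, COR47, AT2G23120, AT1G54410 and AT3G09440) were left out by name. Of 8247 non-control probe sets, 145 (1.76%) met the thresholds, 18 of them were left out by name, and 127 remained as members. Of these, 49 carried a single gene name and stood for 47 genes, 1 carried several gene names, and 77 were not listed in the annotation table. Unrecognised peroxidases, or other genes meant to be left out by name, may therefore still be among the members without a single gene name.

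All seedlings were of ecotype Col-0, were 14 days old, and had been kept at 22 °C on upright agar plates under 16 h of daily light. Whole seedlings were sampled, and the submitters describe the 5 samples as independent without saying more of their origin. Hypoxia was given in bags flushed with a gas of 0.2% oxygen and 99.8% nitrogen, and each of the times 30, 60 and 240 min has 1 array. Air is represented by 2 arrays, taken at 0 and 240 min, and the study asks how expression under low oxygen departs from that in air over time. No value at a time of hypoxia has a replicate, the 30 min array has no air array of its own time, and every difference below is therefore a difference between single arrays. The gap between the 2 air arrays, with an SD of 0.22 on the log2 scale over all non-control probe sets, is the only measure of spread. Most of these probe sets are dim, with a median of 5.13 on either air array, where the scale compresses differences. Some, such as JAL34, have exactly the same value on both air arrays. The SD may therefore understate the spread at the levels of the members. Because the 30 min, 60 min and air values chose the members, those values are given as a description and no test was run on them. Fewer cells of a type and less RNA per cell cannot be told apart in whole seedlings.

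As background, oxygen shortage limits mitochondrial respiration, and plants answer within the first hours with a set of transcripts for fermentation, sugar use and signalling that is switched on by oxygen-sensitive ethylene response factors. Early hypoxia is also accompanied by bursts of reactive oxygen species and calcium, and many genes of wounding, touch and pathogen defence respond quickly to such signals. Chitinases, PR-1-like proteins, lectins, extensins and class III peroxidases are secreted proteins of that kind, with roles in the cell wall and in defence, and many of them are transcribed strongly in roots.

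Across the 127 members, the 30 min value exceeded the mean of the 2 air arrays by a median of 1.49 on the log2 scale, with a range from 1.01 to 4.76. The difference reached 2 for 30 members, 3 for 3 members and 4 for 1 member. The median level of the members was 6.0 and 6.04 on the 0 and 240 min air arrays, 7.70 at 30 min, 5.97 at 60 min and 5.97 at 240 min of hypoxia. The air arrays differed by at most 0.57 for any member, beside 0.303% of all probe sets that differed by 1 or more. By the rule, all members had to stand above air at 30 min, where 2.47% of all non-control probe sets lay at least 1 above both air arrays at a level of 6 or more.

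**Figure D1:**
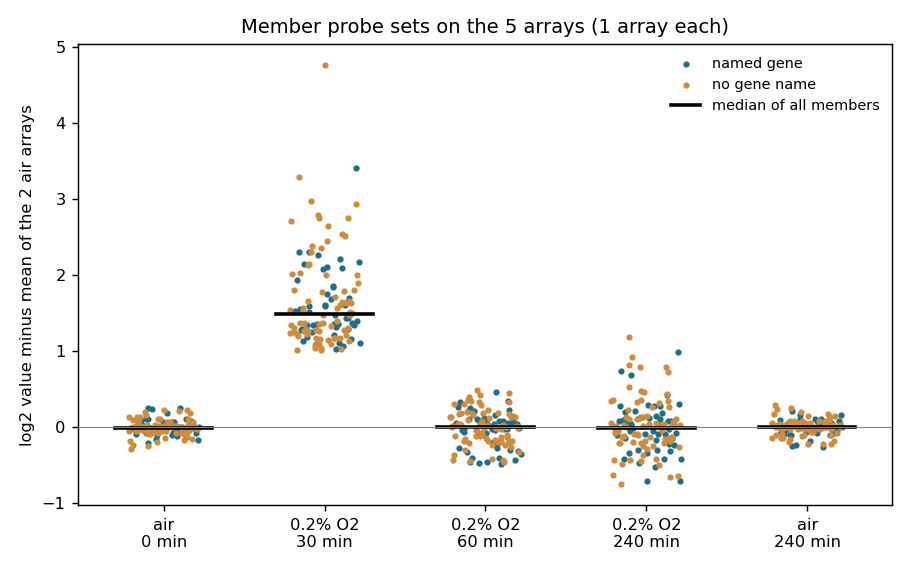
Values of the 127 members on each of the 5 arrays, as log2 value minus the mean of the 2 air arrays, with named genes and probe sets without a gene name in separate colours and a black bar at the median of all members. The members lie between 1.01 and 4.76 at 30 min, where the rule placed them, and between −0.75 and 1.19 at 240 min of hypoxia, which the rule did not use.

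Chitinases, enzymes that cut the chitin of fungal walls, formed the named family with the highest single value. AT2G43610, a chitinase gene, read 6.70 and 6.85 in air at 0 and 240 min, 10.18 at 30 min, 6.82 at 60 min and 7.77 at 240 min of hypoxia. It therefore stood 3.40 above air at 30 min, a 10.6-fold difference. After a value near air at 60 min, it alone among the named members read nearly 1 above air at 240 min, by 0.99. Its near neighbours on chromosome 2 behaved likewise at 30 min. AT2G43590 read 6.62 and 6.11 in air, 8.66 at 30 min, 6.62 at 60 min and 7.05 at 240 min. CHI, which encodes another chitinase, read 5.60 and 5.69 in air, then 7.74, 5.73 and 5.23 at 30, 60 and 240 min. Of these neighbours, CHI was the only one to read below both air arrays at 240 min. AT4G01700, a further chitinase gene, went from 5.23 in both air arrays to 6.59 at 30 min. ChiC, a class V chitinase, went from 5.12 and 5.20 to 6.48. These last 2 genes read within 0.5 of air at 240 min as at 60 min. Their air values lay under 5.5, near the floor of the scale, which leaves little room for a fall.

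The rest of the measured chitinase genes showed no such rise, but most of them read under 5.5 on all 5 arrays. That is near the floor of the scale, which limits what can be said of them. The exceptions were AT2G43620 and AT4G19800, the latter at 5.81 and 5.92 in air and 5.19 at 30 min. In a list of 24 chitinase loci, written after the values had been seen, 16 genes were measured by 17 probe sets, of which 5 lay at least 1 above the air mean at 30 min, the 5 members, and 0 lay 1 or more below it. Over all non-control probe sets the shares at 30 min were 2.86% above and 2.61% below. The list's median difference at 30 min was 0.00, against −0.01 over all. At 60 and 240 min 0 of the 17 lay at least 1 from air in either direction, where at 60 min 1.13% of all probe sets lay as far above and 1.02% as far below, and at 240 min 5.57% and 1.70%. These 240 min shares include a patch of raised dim probe sets on that array, described below. Within the chromosome 2 cluster, AT2G43580, AT2G43600 and AT2G43620, which lie between or beside the members, differed from air by 0.08, 0.04 and 0.00 at 30 min. Levels of AT2G43580 and AT2G43600 were under 5.5 on all 5 arrays, near the floor of the scale, whereas AT2G43620 read between 5.63 and 6.25. A second probe set of AT2G43590, at 4.49 to 4.74 on all arrays, also lay near the floor and differed by 0.02.

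**Figure D2:**
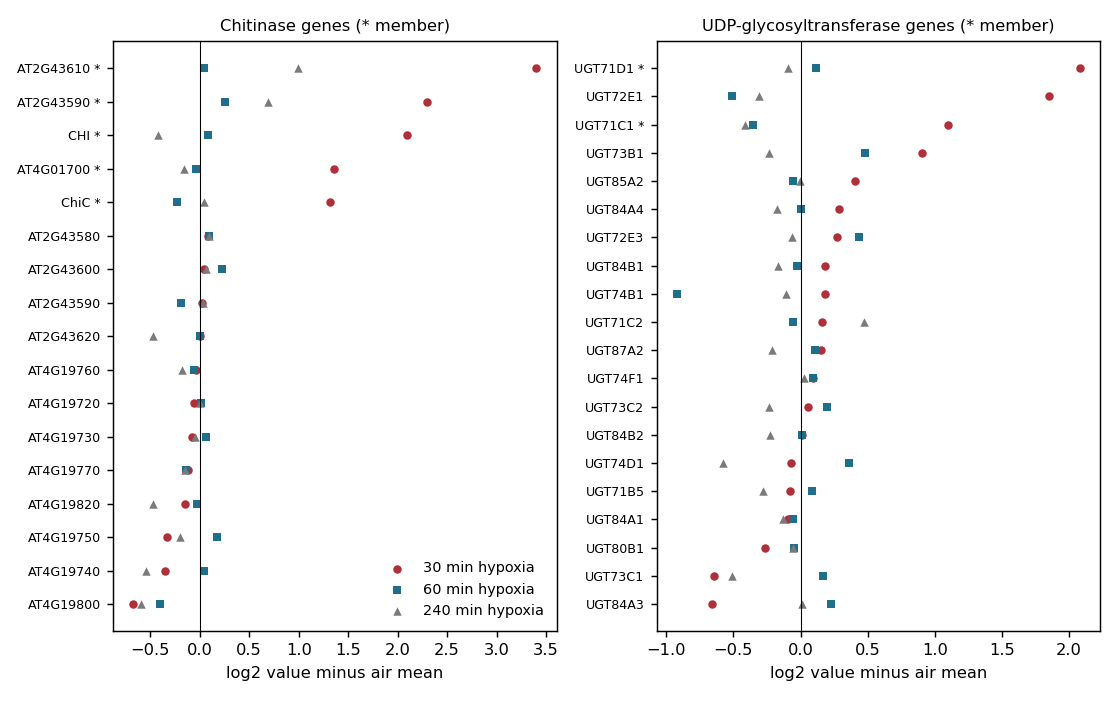
Difference from the mean of the 2 air arrays, in log2 units, for every measured probe set of the chitinase loci (left) and of the UDP-glycosyltransferases (right) at 30, 60 and 240 min of hypoxia, with members marked by an asterisk. The 5 chitinase members stand at 1.32 to 3.40 at 30 min while the other 12 chitinase probe sets lie between −0.67 and 0.08. Most of those 12 read under 5.5 on every array, near the floor.

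The brightest named members encode structural proteins of the cell wall. AT2G43150, a proline-rich extensin-like protein, read 12.62 and 12.10 in air, 14.57 at 30 min, 11.88 at 60 min and 12.55 at 240 min. AT4G38080, a hydroxyproline-rich glycoprotein, read 11.04 and 11.25 in air, 13.40 at 30 min, 10.67 at 60 min and 11.26 at 240 min. Both were above air by more than 2.2 at 30 min and dipped below both air arrays at 60 min, by amounts (−0.48 and −0.47 against the air mean) that lie just inside the limit of 0.5. ATPMEPCRB, a pectin methylesterase that alters the charge of wall pectin, went from 4.81 and 4.89 in air to 6.55 at 30 min and back to 4.56 at 60 min. Its second probe set lay between 4.16 and 4.63 on every array, near the floor, with a difference of 0.13 at 30 min.

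Further secreted proteins moved by 1.14 to 2.14 at 30 min. AT4G34600, the gene of the root peptide CIF2 that guides closure of the Casparian strip, read 8.56 and 8.71 in air, 10.25 at 30 min, 8.68 at 60 min and 9.06 at 240 min. Its 240 min value exceeded both air arrays, by 0.42 against their mean. AT4G11210, of the dirigent family, which steers the coupling of lignin-type radicals, stood 1.34 above air at 30 min with a level of 6.23. AT4G20860 and AT5G44380 belong to the berberine bridge enzyme-like oxidases, flavoproteins some of which oxidise sugars of the wall. AT5G44380 read 5.31 and 5.37 in air, 7.48 at 30 min, 5.32 at 60 min and 5.20 at 240 min, and AT4G20860 went from 5.60 and 5.41 to 6.80 and back to 5.48 at 60 min. A second probe set of AT4G20860 stood 0.79 above air at 30 min, at a level of 5.36 near the floor. In a list of 27 loci of this family, likewise written afterwards, 12 genes were measured by 17 probe sets, with a median difference of 0.02 at 30 min. Only the member probe sets of AT5G44380 and AT4G20860 lay at least 1 above air then, and 0 lay as far below. Over all non-control probe sets the shares were 2.86% and 2.61%.

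The other secreted members included lectins and small proteins of the apoplast. JAL34, a jacalin-type lectin, read 6.65 in both air arrays, 8.23 at 30 min, 6.57 at 60 min and 5.94 at 240 min. AT1G78860, a mannose-binding lectin, went from 5.31 and 5.22 to 6.95, while the nearby gene AT1G78820 lay below air at 30 min, at −1.19 and −1.38 on its 2 probe sets. AT4G33710, a PR-1-like gene, went from 5.80 and 5.84 to 7.09, and the adjacent AT4G33720, left out by name, stood 5.21 above air at 1 of its 2 probe sets and 4.31 at the other. AT2G18370, of the lipid transfer protein family, differed by 1.59, AT4G18340, of the β-1,3-glucanase family, by 1.35, AT2G23540, a GDSL-type lipase, by 1.34 and ARPN, a plantacyanin, by 1.14. Of 14 genes in this wall and secreted group, the level at 30 min spanned 6.23 to 14.57.

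Enzymes acting on small molecules made up a second group of 11 genes, with differences of 1.1 to 2.31 at 30 min. AT1G12010 is an ACC oxidase, of the class that makes ethylene from its precursor with the use of oxygen. It read 6.43 and 6.31 in air, 8.67 at 30 min, 6.09 at 60 min and 6.64 at 240 min, and no other of the 5 ACC oxidase loci was measured by a named probe set. UGT71D1, a glucosyltransferase of flavonoid-type substrates, read 6.03 and 5.91 in air, 8.05 at 30 min, 6.09 at 60 min and 5.88 at 240 min. Its neighbour UGT71C1 went from 5.31 in both air arrays to 6.41, whereas UGT71C2, which lies between them, differed by 0.16. Among 20 measured UDP-glycosyltransferases the median difference at 30 min was 0.16, against −0.01 over all non-control probe sets. Of the 20, 3 lay at least 1 above air and 0 as far below, beside 2.86% and 2.61% of all. The third of these, UGT72E1, at 1.85, missed membership because its 60 min value lay 0.51 below air.

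The short-chain reductases among the members were TRI, AT2G29150 and AT4G13180. TRI, annotated as a tropinone reductase, went from 5.63 and 5.42 to 6.71 and AT2G29150 from 5.37 and 5.16 to 6.78, and the genes AT2G29310, AT2G29340, AT2G29360 and AT2G29370 near TRI were at −1.18, −1.37, −0.49 and −0.14 against air. AT4G13180 differed by 1.37 and FLDH, a farnesol dehydrogenase, by 1.35. MSRB5, which repairs oxidised methionine, read 6.65 and 6.86 in air, 8.61 at 30 min, 6.56 at 60 min and 7.03 at 240 min. AT4G15390, of a plant acyltransferase family, differed by 1.75, AT4G02860, of the PhzF family, by 1.35, and AT5G08300, the α subunit of succinyl-CoA ligase of the citric acid cycle, by 1.16. AT4G02860 was the named member nearest to the level limit, at 6.03.

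Vacuolar proteins and proteases contributed 4 genes. AT1G12080, a calcium-binding protein of the vacuole, read 5.5 and 5.12 in air, 7.42 at 30 min, 5.34 at 60 min and 5.43 at 240 min. AT4G16190, a papain-type cysteine protease, read 9.18 and 9.04 in air, 10.58 at 30 min, 9.57 at 60 min and 8.81 at 240 min. Its second probe set read 9.02 and 9.31 in air, 10.23 at 30 min, 9.68 at 60 min and 6.96 at 240 min. The 2 probe sets of this gene thus moved alike at 30 and 60 min but differed at 240 min, at −0.31 and −2.20 against air. AT4G01610, a cathepsin B-type protease, differed by 1.28 at 30 min and AT1G62660, a vacuolar invertase, by 1.09.

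Among genes of stress and signalling, RD2 and YLS5 each had 2 member probe sets, and they were the only named genes that did. Member probe sets without a gene name could not be grouped by gene. RD2, of the universal stress protein family, read 7.40 and 7.47 in air, 8.82 at 30 min, 7.12 at 60 min and 7.73 at 240 min at its brighter probe set, and differed by 1.39 and 1.07 at 30 min on these probe sets. YLS5, a DJ-1-type protein, differed by 1.61 and 1.25, with its brighter probe set at 7.62 and 7.64 in air and 8.88 at 30 min. AT2G44380, a protein with cysteine- and histidine-rich C1 domains, read 5.76 and 6.09 in air, 8.10 at 30 min, 5.91 at 60 min and 5.21 at 240 min. It was, with JAL34, the named member furthest below air at 240 min, both at −0.71.

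The remaining genes of that group lay between 1.03 and 1.93 above air at 30 min. They were AT2G40110, of the Yippee family of zinc-binding proteins, at 1.93, AT4G38550 at 1.65, AT2G38800, a calmodulin-binding protein, at 1.53, AT2G46140 (LEA27), a late embryogenesis abundant protein, at 1.44, AT1G09740, another universal stress protein, at 1.1 and AT2G30740, a protein kinase, at 1.03. AT2G35850, AT2G15830, AT2G28570 and AT1G22930, for which no role is given here, differed by 1.84, 1.55, 1.43 and 1.21. AT2G15830 was also above air at 240 min, by 0.73, while AT2G35850 was 0.52 below it.

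**Figure D3:**
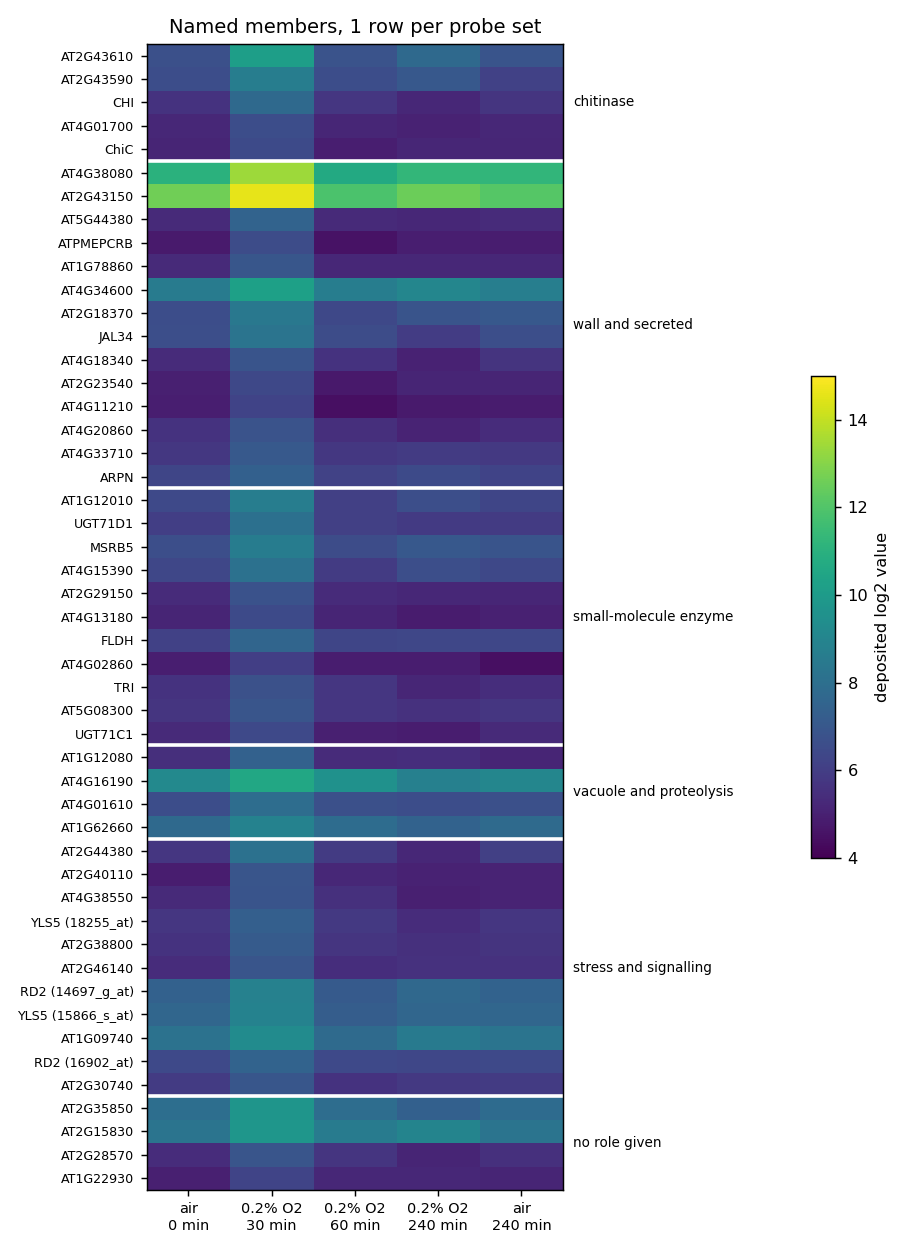
Deposited log2 values of the 49 named member probe sets (rows, grouped by role) on the 5 arrays (columns), with colour from 4 to 15. The 30 min column is the brightest in every row, and AT2G43150 and AT4G38080 stand out by level, at 14.57 and 13.40.

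Most members carried no gene name. The 78 probe sets without a single gene had a median difference of 1.49 at 30 min, and the 49 named ones had 1.47. The member with the largest rise was the unnamed probe set 20421_at, which read 5.38 and 4.92 in air, 9.91 at 30 min, 5.01 at 60 min and 4.86 at 240 min. The unnamed member with the next number, 20422_g_at, stood only 1.60 above air at 30 min, at a level of 6.20. Whether both report the same transcript was not worked out. The unnamed 15137_s_at was the second brightest member, at 11.63 and 11.96 in air, 14.31 at 30 min, 11.80 at 60 min and 12.23 at 240 min. The unnamed 15216_at read 9.68 and 9.51 in air, 12.88 at 30 min, 9.64 at 60 min and 8.84 at 240 min, and was the member furthest below air on the 240 min hypoxic array. Probe sets with a letter in their suffix, which can report several similar transcripts, made up 31.5% of the members and 24.3% of all non-control probe sets.

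The array of 240 min of hypoxia took no part in the choice of members. On it, 1 of the 127 lay at least 1 above the air mean, where 5.57% of all non-control probe sets did, and 0 lay as far below, where 1.70% of all did. The exception was the unnamed 12846_s_at, which read 6.46 and 6.60 in air, 7.79 at 30 min, 6.92 at 60 min and 7.72 at 240 min. The 5.57% and the other 240 min shares over all probe sets include 510 that lie in a patch of raised readings, described below. Those shares were not recomputed without the patch, so the members' low count beside 5.57% is hard to read. The median difference of the members from air was −0.0077 at 240 min, beside −0.03 over all probe sets, and single members ranged from −0.75 to 1.19. Of the members, 110 (86.6%) lay within 0.5 of air at 240 min, a share near the 83.2% of all non-control probe sets. Among the 2096 other probe sets that read 6 or more at 30 min the share was 70.7%. Members near the floor in air had little room to fall below it. Since the air values and the 60 min window that chose the members also favour steady probe sets, these shares are a description. With 1 array, no error attaches to them, and leaving out either air array changed the count at least 1 below air to between 1 and 4 and the count at least 1 above to between 1 and 3.

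Of the 17 members more than 0.5 from air at 240 min, 10 (7.87%) were above and 7 (5.51%) below it, beside 10.1% and 6.71% of all probe sets. Above both air arrays, by any amount, lay 42 members (33.1%, beside 29.4% of all), and below both lay 57 (44.9%, beside 43.4%), shares near those of the whole array. Of the members, 115 read at least 1 higher at 30 min than at 240 min of hypoxia, where 4.3% of all did, but the rule had chosen high 30 min values. The named ones above were AT2G43610 (0.99), AT2G15830 (0.73) and AT2G43590 (0.69), and those below were AT2G44380 and JAL34 (each −0.71) and AT2G35850 (−0.52). The 240 min hypoxic array carries a patch in which dim probe sets with nearby numbers read high, and 3 of the 92 members that could be judged lie in it, beside 7.24% of all judged probe sets. None of the named genes in the preceding sentence lies in the patch, as far as could be judged, which excepts AT2G43590 and JAL34, with 4 and 2 dim neighbours against the 5 required. A like search on the 30 min array placed 0 of 92 members in a raised patch, and the dim probe sets near the members differed on that array by a median of 0.02.

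**Figure D4:**
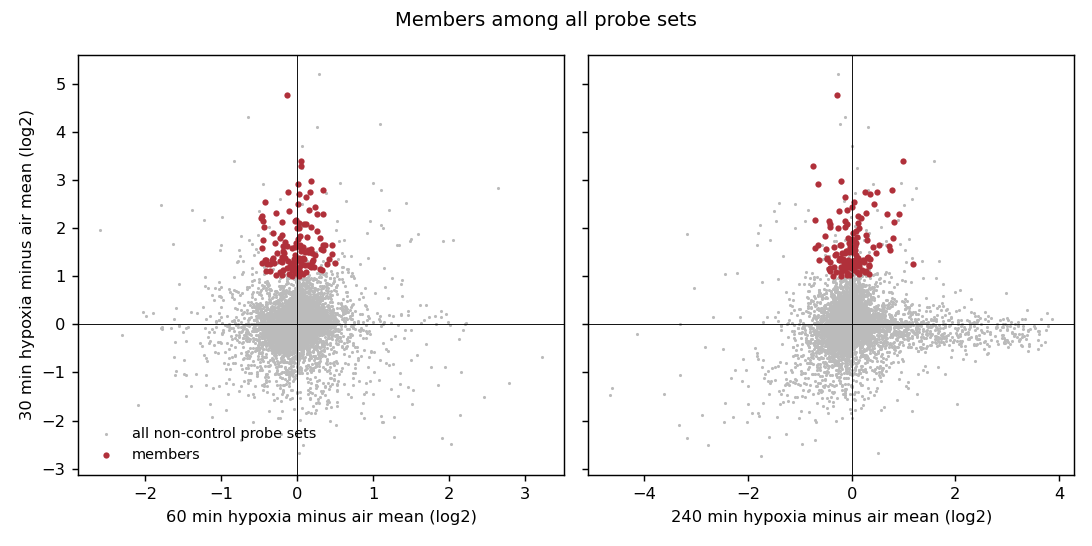
Difference from the air mean at 30 min (vertical axis) against that at 60 min (left) and 240 min of hypoxia (right), in log2 units, for all 8247 non-control probe sets in grey and the 127 members in red. The members lie within 0.5 of 0 at 60 min by the rule, and 110 of them do so at 240 min.

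Of 204 probe sets that were at least 1 above both air arrays and at 6 or more at 30 min, 145 (71.1%) were within 0.5 of air at 60 min, 34 were more than 0.5 above and 25 more than 0.5 below it. Over all 2223 probe sets at 6 or more at 30 min, 78.2% were within 0.5 at 60 min. The same thresholds turned downward, with both air arrays at 6 or more, were met by 104 probe sets.

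Some control and marker probe sets also differed from air at 30 min, and others did not. Of 6 control probe sets for Arabidopsis GAPDH and ubiquitin, genes often taken as steady references, 5 met the same thresholds as the members, with differences of 1.3 to 1.56 at 30 min for the 6 and of −0.79 to 0.08 at 60 min. The actin control, another such reference, read 9.90 and 10.06 in air and 10.07 at 30 min, a difference of 0.09, and the 25S and 5S ribosomal RNA controls differed by 0.30 and 0.07. The BioB, BioC, BioDn and CreX spike controls, of bacterial and phage sequence, differed at 30 min by −0.02 to 0.62 with a median of 0.39 over 9 probe sets. The 15 bacterial Dap, Lys, Phe, Thr and Trpn controls, which read under 6 on every array, differed by −0.56 to 0.24 with a median of −0.09. Photosynthesis genes, which mark green tissue, were lower than air at 30 min on 16 of 16 probe sets of 12 genes, beside 52.1% of all non-control probe sets, with a median of −0.99, a range from −1.83 to −0.34 and a mean level of 10.23 against 11.25 and 11.30 in air. At 60 min 10 of these 16 lay above air, beside 47.4% of all, and 6 below, with a median of 0.20. Of 63 root-expressed genes listed, only LBD16, AT4G12545 and XTH26 were measured, at 4.48 to 5.49 on all arrays and thus near the floor, with differences of 0.04 to 0.42 at 30 min. The part of tissue make-up, of RNA amount or of the array in the values of the members was not tested, and treatment and sample cannot be told apart with 1 array at 30 min.

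Of a low-oxygen response list, 0 of 5 measured genes were members. Such a count is near the share over all non-control probe sets, of which 1.76% met the thresholds. Of 30 genes listed, 5 were measured, and their median difference from air was −0.74 at 30 min, 0.71 at 60 min and −0.90 at 240 min. The air arrays differed by over 1 for 3 of the 5, so these medians depend on the air array taken. Against the 0 min air array alone they were −0.25, 1.18 and −0.32, and against the 240 min one −1.32, 0.56 and −1.48. Of 3 measured glutathione S-transferases, which detoxify by conjugation, GSTF3 stood 1.17 above air at 30 min without meeting the rule, GSTU16 differed by 0.01 and GSTU18 by −0.87. Beside JAL34, the jacalin-type lectins JAL31 and JAL23 differed by 0.63 and −0.03 at 30 min. The only measured gene of the oxidative stress list, the zinc finger repressor STZ, differed by 0.29 and 0.41 on its 2 probe sets.

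On the chromosomes, the 47 member genes included 4 pairs no more than 5 protein-coding genes apart, formed by AT2G43570 (CHI), AT2G43590 and AT2G43610 and by UGT71D1 and UGT71C1. How many such pairs other sets of 47 genes would hold was not worked out. Of 154 non-member probe sets for genes as close to a member, 2 lay at least 1 above air at 30 min, both of AT4G33720. As far below lay 5, and the median of the 154 was 0.00. Over all non-control probe sets 2.86% lay as far above and 2.61% as far below. Chromosomes 2 and 4 held 21 and 17 of the member genes, and 1330 and 1141 of the genes named on the array.

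Second probe sets were available for 6 member genes, which had 7 such probe sets outside the membership. They stood 0.02 to 1.07 above air at 30 min, with 1 of the 7 reaching 1, that of AT4G16190, and 5 of them read under 5.5 at 30 min. The other one, of AT2G15830, read 6.83 at 30 min against 6.72 and 6.75 in air, so that for this gene the probe sets disagreed. For AT2G43590, ATPMEPCRB, AT4G20860 and ARPN the member probe set has the suffix s and can report several similar transcripts. Their other probe sets differed by 0.02, 0.13, 0.79 and, for ARPN, 0.29 and 0.62. The rise of 1 or more in these genes therefore rests on the member probe set alone.

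Near the limits of the rule, AT2G30740, AT1G62660 and AT1G09740 were just inside the limit of 1 over the higher air array, at 1.03, 1.05 and 1.07, and AT2G24550, DI21 and AT1G54320 just outside, at 0.97, 0.96 and 0.96. For the level of 6 at 30 min, AT4G02860, AT4G11210 and AT1G22930 were inside, at 6.03, 6.23 and 6.27, and AT4G13580 was the only named gene kept out by that limit alone, at 5.81. For the 60 min window, AT2G43150, AT4G38080 and AT2G18370 were inside, at −0.48, −0.47 and −0.46 from air, and UGT72E1, AT2G30930 and AT2G36320 outside, at −0.51, −0.52 and 0.54.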

How the data were processed

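Biotin-labelled cRNA from 5 samples had been hybridised to 1-colour Affymetrix arrays. The deposited table holds log2 values of 8297 probe sets made with RMA by the authors, per the submitters' processing notes; the version and build are not stated there. RMA normalizes the arrays together and compresses differences near its floor of about 4 to 5. Array medians were alike, so values were used unscaled. Precision is limited by how few arrays there are.

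The 50 control probe sets were set apart. The platform annotation and the TAIR10.1 RefSeq gene table named 3592 genes on 3784 probe sets (4463 had no single gene). RefSeq was used for names and gene order, not coordinates. Family descriptions of genes known only by locus are background knowledge. No sequences were used here.

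The members and lists were chosen with earlier results of these data known. Peroxidase loci were listed by hand. No test was run; counts use a log2 difference of 1 from the mean of both air arrays. Genes named were the 30 highest-ranking, those with several member probe sets, list members, those near a limit and, by role, the remainder. Lists not mentioned in the results had no member, but many of these, drawn by gene symbol, matched no probe set at all. That was so for pectin methylesterases, lipid transfer, extensin and dirigent proteins and invertases, although genes described above as such are members. Lists of oxidative stress genes (1 measured), glutathione S-transferases (3) and jacalin lectins (3) were small. The patch was redefined here, since only part of its earlier definition was at hand: at least 5 dim probe sets (under 5.5 on the other arrays) lying 1, 2, 32, 33, 34, 66 or 67 numbers away, with a median difference of 0.5 or more. Alternatives changed the limits, the scaling and the air arrays. The rule was checked on simulated arrays. Python 3.11.15, numpy 2.4.6, pandas 2.3.3 and matplotlib 3.10.9 were used.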

Additional observations from a re-analysis of the deposited data

Results flagged for a closer look

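Some members stood above air at 30 min and at least 0.5 below both air arrays at 240 min of hypoxia, and this difference between single arrays was not tested. Against the air mean at 240 min, AT2G44380 was at −0.71, JAL34 at −0.71 and the unnamed probe sets 15216_at, 14640_at, 20369_s_at and 15448_at at −0.75, −0.66, −0.65 and −0.62. Of these, 14640_at lies in the patch of raised dim probe sets.

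The Arabidopsis GAPDH and ubiquitin control probe sets, which are outside the main measurement, were above both air arrays by more than 1 at 30 min. The ubiquitin controls stood 1.55 (3′), 1.56 (middle) and 1.33 (5′) above the air mean, and the GAPDH controls 1.43 (3′), 1.41 (middle) and 1.3 (5′).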

How the results depend on the processing

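Leaving out 1 air array at a time gave 139 to 153 members, a median difference at 30 min of 1.37 to 1.47 and at 240 min of −0.02 to −0.01, and counts at 240 min of 1 to 3 members at least 1 above air and 1 to 4 at least 1 below. Without the 0 min air array 120 of the 127 members remained, and without the 240 min air array 125. Asking for a rise of 1.5 at 30 min left 55 members, with a median of 2.02 at 30 min and 0 members at least 1 above air at 240 min. A rise of 0.8 gave a median of 1.28 and 4 such members. With a 60 min window of 0.3 the count at least 1 above air at 240 min was 0, and with a window of 1 it was 3, with 4 at least 1 below. Quantile normalization again, and a common median, each gave 1 member at least 1 below air at 240 min, and kept 118 and 125 of the members. Over all these settings the 240 min median lay within 0.16, the SD of 1 air array, of its reported value. Of 196 recomputed 30 min differences of named genes, 14 moved by more than that SD and 0 changed direction, which the choice of members largely fixed. Leaving out the patch, or taking 1 value per gene, changed no median by more than that SD. No paired analysis was possible because each time of hypoxia has 1 array and the labels give no replicate numbers. The floor of the scale limits what can be said of probe sets under about 5.5.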
